A study of Homo sapiens with 8 samples.

Results

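In HepG2 cells that overexpressed Flag-tagged QKI7, 190 short stretches of RNA were listed as enriched in both sample pairs with METTL1 knocked out and in neither pair with the control guide. These sites were found in deposited peak lists from RNA immunoprecipitation sequencing (RIP-seq), in which RNA recovered with a Flag antibody (IP) is compared with the RNA of the whole lysate (input). A peak row met the rule when it came from an sgMETTL1 list, consisted of a single block under 1000 bases, shared at least 1 base on the same chromosome and strand with a peak of the other sgMETTL1 list, and shared no base with any peak of either sgNS list. By that rule, 169 of 8705 narrow single-block peaks of the first sgMETTL1 list (1.94%) and 154 of 8045 of the second (1.91%) were taken, out of 10095 and 9388 peaks in those lists and 42083 peaks in all 4 lists. Overlapping rows were joined into the 190 sites, which lay in 180 genes on 23 chromosomes. The sites were thus chosen by measured values, the peak calls of the 4 lists, so their presence with one guide and absence with the other is how they were defined and not a finding.

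The series held 8 samples of HepG2, a human liver cancer cell line. Input and IP RNA were each prepared in 2 replicates from cells with a control guide (sgNS) and in 2 replicates from cells with a guide against METTL1 (sgMETTL1). All of these cells carried Cas9, were infected with a lentivirus for 3 x Flag-QKI7 and were kept for being GFP-positive, so QKI7 was overexpressed and tagged in both groups; lysates were made after UV cross-linking and sonicated. Whether the knockout cells were a single clone, and whether the replicates were separate cultures, is not stated in the sources used. The p-values of the later comparison between guides, by limma, therefore reflect sample-to-sample spread that could be technical. Per the labels, the deposited p of a peak comes from its own IP and input pair, so it holds no spread between replicates. The study asked if loss of METTL1 alters the transcripts that QKI7 holds.

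QKI7 is a cytoplasmic isoform of Quaking, an RNA-binding protein of the STAR family that contacts RNA through a KH domain and is known for preferring a hexamer, ACTAAC in DNA letters or its form that ends in T, together with a nearby short core of the hexamer's last letters. Quaking proteins act on splicing, stability, transport and translation of their targets, often from the 3′ untranslated region. METTL1, with its partner WDR4, methylates guanosine at N7 in transfer RNA and in some messenger RNA.

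Sequence was at hand for the few sites that a RefSeq promoter window covers (250 bases before to 50 after the annotated start of a gene, GRCh38.p14). These were 6 of the 190 sites, 2 of them covered whole, with 513 bases in all. They are shown because position along the gene is among the results, and sites at the 5′ end of a gene are part of it. Those of ZNF514, ABLIM3, TAF13 and PHOSPHO2 lay in the first 10% of the gene, but DAO's lay at 98.6% and TMEM107's at 65.2%. Each run below is at most 30 bases, 5′ to 3′ on the strand of the site, and capitals mark the short core.

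ZNF514, chr2:95159536-95159555, minus strand: cgcgcagacctgtactgggc
ABLIM3, chr5:149142007-149142036, plus strand: aggtgatgagtgaggttcgaagaacggaag
DAO, chr12:108900648-108900677, plus strand: agcatgaggtgagagaaagccacaaagtca
TAF13, chr1:109075973-109076002, minus strand: gtgTAACcagctgggagccagccggcagga
TMEM107, chr17:8173878-8173907, minus strand: taagatacttggtatcgcttctattttggt
PHOSPHO2, chr2:169694514-169694543, plus strand: gctgggcttgtgagtggggctgccgagagg

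The search for the hexamer used the letters ACTAAC and, as the second form, the letters ACTAAT. For the short core it used the letters TAAC and, as the second form, the letters TAAT, also where these lie inside a hexamer. It read the strand of the site only, over all covered bases. Either hexamer was in 0 of the 6 stretches, and either core in 1, that of TAF13, a subunit of the general transcription factor TFIID. For comparison, stretches of the same lengths from the start of each of 35116 RefSeq promoter windows held either hexamer in 0.421 to 3.44% of windows and either core in 7.68 to 41.9%. These stretches lie upstream of the annotated start of their gene, so they are not matched to sites in RNA. The windows over the DAO, TMEM107 and ABLIM3 sites belonged to other, uncharacterised RefSeq loci that share those bases. The other 184 sites have no printed sequence here.

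Peaks were fewer with sgMETTL1: the sgNS lists held 11562 and 11038 peaks in 5570 and 5359 genes, and the sgMETTL1 lists 10095 and 9388 peaks in 5091 and 4981 genes. No list had a peak in METTL1 or WDR4, so the knockout could not be checked from these files. QKI itself had 4 and 6 peaks with sgNS and 6 and 4 with sgMETTL1, none of them among the 190 sites. Of 8 hepatocyte markers, 5 had a peak, ALB and APOB among them, and 3 had one in all 4 lists, while of 7 fibroblast and blood markers HBB and LYZ had one; none of either kind was a host of a site. A peak is no measure of expression, and in such bulk samples fewer cells of a type and less RNA per cell cannot be told apart. The reverse rule, with the guides exchanged, took 1164 of 9800 narrow peaks of the first sgNS list (11.9%) and 1178 of 9299 of the second (12.7%), which formed 1305 sites in 1133 genes. With equal numbers of peaks per list, the 9388 strongest by p, the counts were 249 sgMETTL1-only sites and 810 sgNS-only sites.

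The sgMETTL1-only sites were short and of modest enrichment. Their blocks had a median of 120 bases in both lists, with 59 the shortest and 451 the longest, whereas all narrow peaks of the same lists had medians of 211 and 240 bases. The authors' deposited fold of a row, IP over input, had a median of 3.66 in the first sgMETTL1 list (lowest 1.18, highest 39.6) and 3.33 in the second (lowest 1.22, highest 36.1). All narrow peaks had median folds of 4.27 and 4.16. Rows of the sgNS-only sites were also short and of modest fold in their own lists. Their median blocks were 180 and 151 bases and their median folds 2.65 and 2.63. The −log10 p had a median of 3.94 and 3.75 at the sites, against 6.57 and 7.05 for all narrow peaks. These values chose the sites through the peak call, and they are given as a description. At a site there is no sgNS value to set beside them, because the lists give a value only where a peak was called, and a missing peak is not a fold of 0.

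Most of these rows stood near the weak end of their own list. Ranked by p, with 100 as the weakest, the median percentile was 79.0 in the first list and 82.8 in the second. The percentiles above 50 held 163 of 169 rows (96.4%) and 147 of 154 rows (95.5%), and those above 75 held 105 (62.1%) and 102 (66.2%). Rows of the sgNS-only sites also stood toward the weak end of their own lists, with median percentiles of 70.2 and 74.5. When narrow peaks were ranked by p among themselves, 0.046% and 0.0497% of the strongest 25% met the rule, and 4.41% and 4.77% of the weakest 25% did. By contrast, 65.8% and 70.3% of all narrow sgMETTL1 peaks shared bases with a peak in each of the other 3 lists. The sgMETTL1 peaks that 1 or both sgNS lists met, but the other sgMETTL1 list did not, came to 18.4% and 15.2%, and those met by no other list to 10.0% and 8.54%.

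**Figure D1:**
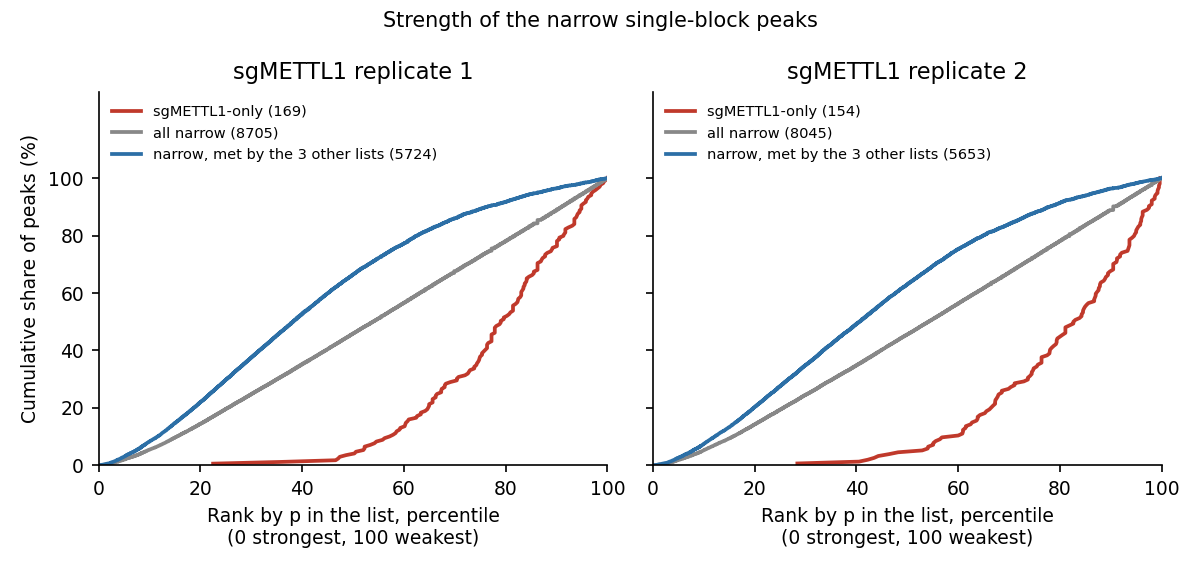
Cumulative share of peaks (vertical axis, percent) against their rank by p within the list (horizontal axis, percentile, 100 the weakest), for each sgMETTL1 list. Red lines are rows of the sgMETTL1-only sites (169 and 154), grey lines all narrow single-block peaks and blue lines narrow peaks met by all 3 other lists; the red lines lie to the right of the others, with medians of 79.0 and 82.8.

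The folds of a site in the 2 sgMETTL1 lists were within 1.5 times of each other at 131 of 190 sites (68.9%). They were over 3 times apart at 20 sites (10.5%). No matching share was taken over other peaks, so these counts are a description and no measure of agreement. Both folds were at least 2 at 155 sites and at least 10 at 22 sites, while 24 sites had both folds under 2. A −log10 p of at least 5 in both lists was reached at 24 sites, and a listed FDR of at most 1% in both lists at 132 (69.5%). Both lists contributed a row that met the rule at 127 sites. At the other 63 sites only 1 list did: the overlapping peak of the other list was a narrow block that touched an sgNS peak at 39, a wider or multi-block peak clear of sgNS peaks at 20, and a wider or multi-block peak that touched one at 4. For these 63 sites, here and below, the fold given for the other list is that of the overlapping peak, which did not itself meet the rule.

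**Figure D2:**
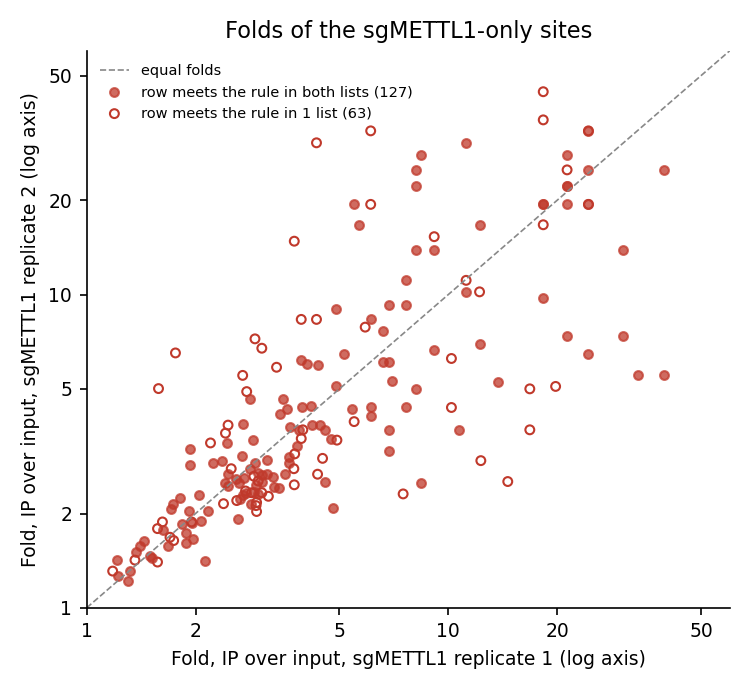
Deposited fold, IP over input, of each of the 190 sites in sgMETTL1 replicate 1 (horizontal, log axis) and replicate 2 (vertical, log axis). Filled points are the 127 sites with a row that meets the rule in both lists and open points the 63 with one in 1 list; the dashed line marks equal folds, and 131 sites lie within 1.5 times of it.

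High folds at these sites came in a few recurring values. In the first list the folds 18.3, 21.3 and 24.4 each occurred at 6 sites, and in the second list 19.4 occurred at 7 sites and 25.0 at 4. Those values are close to whole multiples of a step of 3.05 in the first list and 2.78 in the second. Of rows between 3 and 12 steps, 25 of 37 (67.6%) and 25 of 34 (73.5%) were at a whole multiple within the rounding of the files, against 36.5% and 35.5% of all narrow peaks of those lists, and 0 of 35 and 0 of 33 were with a step 7% larger. Rows of the sgNS-only sites were also at whole multiples more often than all narrow peaks of their own lists. With steps of 2.315 and 2.113 there, they were so at 82 of 179 and 103 of 206 rows between 3 and 12 steps. All narrow sgNS peaks were so at 898 of 3115 (28.8%) and 828 of 3096 (26.7%). The lists hold no read counts, so the depth behind a fold is unknown, and an order among sites with such folds is coarse.

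The overlaps behind the rule ranged from slight to complete. A row shared a median of 61 bases with its partner in the other sgMETTL1 list, with 1 base the least. No single block of 1000 bases or more met the rest of the rule; the narrow peaks nearest that bound were of 991 bases and the nearest wide ones of 1011. Sharing of bases with an sgNS peak removed 12041 rows that otherwise met the rule, of which 47 shared at most 30 bases in all. On the outer side, the smallest gap between a site and an sgNS peak of its gene was 29 bases. With a reciprocal overlap of 50% required between the paired blocks, there were 77 sites.

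Most sites lay in genes that also had peaks with the control guide, at other places. Of the 190 sites, 116 were in genes with a peak in both sgNS lists, 26 in genes with a peak in 1 of them and 48 (25.3%, exact 95% interval 19.2 to 32.1%) in genes with none. These and the following intervals are Clopper-Pearson and cover counting error only. Of sgNS-only sites, 268 of 1305 (20.5%, interval 18.4 to 22.8%) were in genes with no sgMETTL1 peak, so the intervals of both shares overlap. An sgNS peak on the opposite strand shared bases with 0 of the 190 sites, and 0 lay between the blocks of an sgNS peak. Genes that held both an sgMETTL1-only and an sgNS-only narrow site numbered 19 of the 180 host genes (10.6%), among them KMT2D, TNRC6A, ARHGAP32, ZFP14 and ZNF81. Over all genes with any peak, 1133 of 6520 hosted an sgNS-only site.

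A good part of the sites bordered an sgNS peak. The gap to the nearest sgNS peak of the gene was at most 30 bases at 25 sites (13.2%, interval 8.70 to 18.8%), at most 200 bases at 70 (36.8%) and over 1000 bases at 32 (16.8%). For sgNS-only sites and the nearest sgMETTL1 peak, 68 of 1305 (5.21%, interval 4.07 to 6.56%) had a gap of at most 30 bases and 439 (33.6%) at most 200. Of the 70 gaps up to 200 bases, 69 were 1 or 2 bases under a multiple of 30, and block sizes of 60, 61, 90, 91, 120 and 121 bases recurred, so peak edges stood on a grid of about 30 bases. Sites that bordered an sgNS peak and the rest had like strengths: the median −log10 p was 4.08 and 3.78 for gaps up to 200 bases, and 4.02 and 3.97 for the others.

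**Figure D3:**
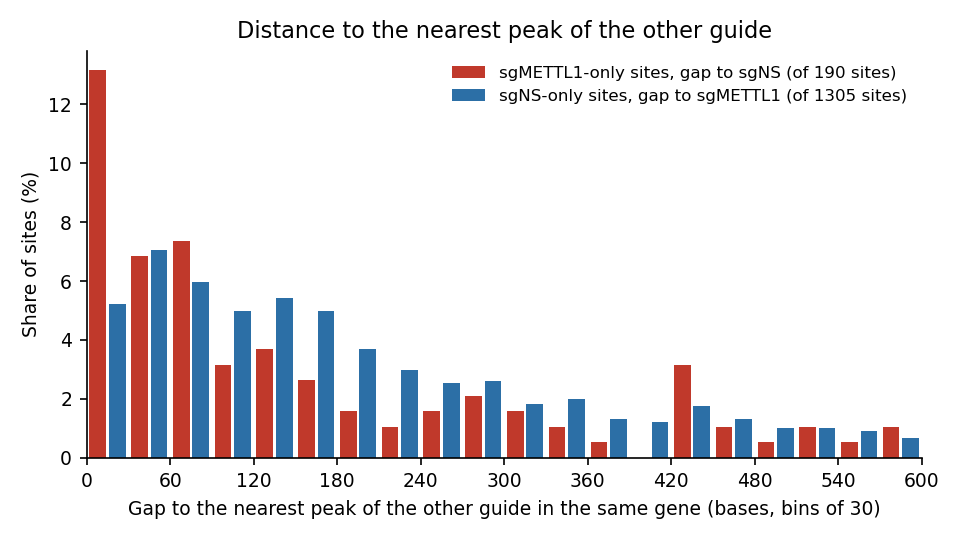
Share of sites (vertical axis, percent) by gap to the nearest peak of the other guide in the same gene (horizontal axis, bases, bins of 30), for 190 sgMETTL1-only sites in red and 1305 sgNS-only sites in blue. Sites in genes with no such peak, or with gaps beyond the axis, count in the total but are not drawn; the first bin holds 13.2% of the red and 5.21% of the blue sites.

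Most sites lay near the 3′ end of their gene, and their share there was below that of the other narrow peaks. Position, which the rule did not use, was taken as the centre of the site along the RefSeq span of its gene (GRCh38.p14), introns included; 189 sites could be placed. Of these, 119 (63.0%, interval 55.7 to 69.9%) were in the last 10% of the span, against 1030 of 1302 sgNS-only sites (79.1%, interval 76.8 to 81.3%) and 80.2% of narrow peaks of the first sgMETTL1 list met by all 3 other lists (interval 79.2 to 81.3%). The share was also lower among weak peaks: in the weakest 25% by p of narrow sgMETTL1 peaks the share was 74.6% and 74.5% (upper bounds 76.4% in both lists). The first 10% of the span held 8 sites (4.23%, interval 1.85 to 8.17%), compared with 1.31% of sgNS-only sites, 0.385% of narrow peaks met by all 3 other lists, and 1.24% and 2.34% of the weakest 25%. The interval of the 8 sites overlapped those of the sgNS-only sites (0.762 to 2.08%) and of the weakest 25% in the second list (1.73 to 3.11%). No test was run on these shares, since sites of 2 lists are not replicates of a condition.

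**Figure D4:**
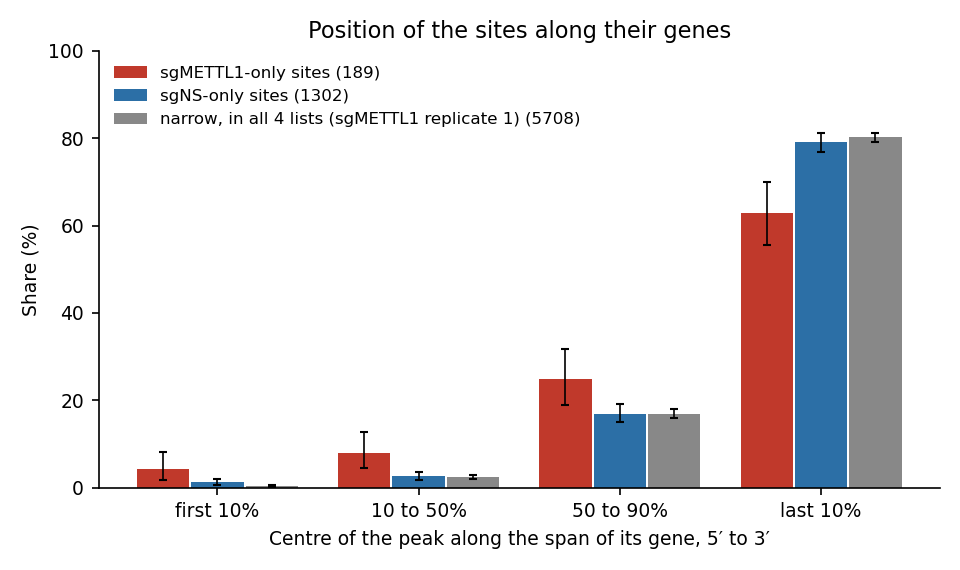
Share of sites or peaks (vertical axis, percent) by position of the centre along the span of the gene (horizontal axis), for 189 sgMETTL1-only sites, 1302 sgNS-only sites and 5708 narrow peaks of sgMETTL1 replicate 1 that all 3 other lists met. Error bars are exact 95% intervals of counting error; in the last 10% of the span the red bar is 63.0% and the others 79.1% and 80.2%.

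Position differed with the neighbourhood of the site. In genes with no sgNS peak, 20 of 47 placed sites (42.6%, interval 28.3 to 57.8%) were in the last 10% of the span, and in genes with one, 99 of 142 (69.7%, interval 61.5 to 77.1%). Sites within 200 bases of an sgNS peak were there at 55 of 70 (78.6%), and all other placed sites at 64 of 119 (53.8%). A site that close lies nearly where its sgNS neighbour does, and 78.7% and 78.9% of all narrow sgNS peaks were in the last 10%. The share within 200 bases is therefore a description of the split. The 8 sites in the first 10% were in ABL2 (a tyrosine kinase), TAF13, ABLIM3 (an actin-binding LIM protein), PHOSPHO2, ZNF514, TUBG2 (a gamma-tubulin), TRIM41 (a ubiquitin ligase) and COL27A1 (a fibrillar collagen). Among them the fold was 13.7 and 5.27 at ZNF514, 6.86 and 3.17 at ABL2, 3.92 and 3.47 at TAF13, 3.16 and 2.68 at TRIM41, 3.27 and 2.62 at TUBG2, and 6.86 and 3.70 at PHOSPHO2. ABLIM3 had folds of 18.3 and 44.4, of which the second belonged to a 5-block peak of 659 bases that reached over the 61-base row of the first list.

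Among rows that met the rule, the lowest p in each list was in DSP, which encodes desmoplakin, the protein that anchors intermediate filaments to desmosomes. The site covered chr6:7582853-7583033 on the plus strand, 91.6% along the gene, with folds of 1.52 and 1.44 and −log10 p of 27.7 and 22.3 in the sgMETTL1 lists. Thus the strongest p among those rows went with a small fold. The main DSP peak, 2784 bases downstream and in all 4 lists, had folds of 10.0 and 6.34 with sgNS and of 3.16 and 3.20 with sgMETTL1. CENPB, the centromere protein that binds the CENP-B box, came next by mean percentile over both lists: its site at chr20:3784150-3784508 on the minus strand had folds of 1.96 and 1.86 and −log10 p of 12.9 and 10.0, and the gene had no sgNS peak. EHBP1L1, a Rab8 effector of membrane traffic, also had no sgNS peak and had folds of 2.98 and 2.70 at 38.7% of the span. SEMA6B, a transmembrane semaphorin, had folds of 1.40 and 1.58 with an sgNS peak 178 bases away.

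Several other sites that ranked high by p owed this to a broader partner peak. At ABCA1, the cholesterol efflux transporter, a 90-base row of fold 1.76 in the first list overlapped a 959-base peak of fold 6.51 in the second, and that peak touched an sgNS peak. The row itself ended 29 bases from an sgNS peak. EPPK1 (epiplakin, a cytolinker) paired a row of 151 bases and fold 1.58 with a peak of 1140 bases and fold 5.01. ANKS4B, a scaffold of the brush border, paired 61 bases and fold 2.70 with 690 bases and fold 5.52, and HSPB8, a small heat shock protein, paired 180 bases and fold 7.87 in the second list with 807 bases and fold 5.89 in the first. SPTBN1, a beta-spectrin, had folds of only 1.18 and 1.31, and ACBD5, a peroxisomal tether to the endoplasmic reticulum, had 2.98 and 2.54.

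By fold, the leading sites were in LMLN, FPGT, UACA, ABLIM3, BICD1, TPPP, VGLL3, TRPM5, DPYD, TNFRSF9, MTM1 and ZNF610, with folds of 18.3 to 39.6 in the first list and 19.4 to 44.4 in the second. LMLN, a metallopeptidase, had folds of 24.4 and 33.3 over 270 and 240 bases, 119 bases upstream of an sgNS peak. The gene as a whole was peak-rich, with 4 and 5 peaks in the sgNS lists and folds there of 5.21 to 60.2. At UACA, which encodes a coiled-coil protein with ankyrin repeats, the folds were 39.6 and 25.0, with an sgNS peak 59 bases away. FPGT, an enzyme of fucose salvage, had 18.3 and 36.1 at a site 29 bases from an sgNS peak of fold 25.4, and the first-list block touched that peak. VGLL3, a cofactor of TEAD transcription factors, had 21.3 and 22.2, with 4078 bases to the nearest sgNS peak. TRPM5, a cation channel of taste cells, had 21.3 and 27.8, and the gap was 2076 bases. Thus both near neighbours of sgNS peaks and isolated sites were among those with high folds.

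Genes with several sites showed how the sites are spaced. CPM, a membrane carboxypeptidase, carried 3 sites on the minus strand of chromosome 12 within the stretch from 89.6 to 90.6% of the gene. Their folds were 18.3 and 19.4 at chr12:68853508-68853777, 4.06 and 6.01 at chr12:68853897-68854106, and 4.19 and 3.82 at chr12:68854674-68854853. The sgNS lists had a single CPM peak, of 61 bases and fold 16.9, in the second list. With sgMETTL1 a larger block of 838 and 957 bases, with folds of 5.20 and 8.33, covered that place. TPPP, a tubulin polymerization promoting protein, was alike in layout: 6 and 2 peaks with sgMETTL1 and 0 and 1 with sgNS, and sites of folds 24.4 and 25.0, and 6.86 and 9.25. BIRC3, an inhibitor of apoptosis with ubiquitin ligase activity, held 2 sites between peaks shared by the guides; their folds were 11.2 and 30.5 at the first and 39.6 and 5.55 at the second. The order of the pair was therefore opposite in the replicates.

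**Figure D5:**
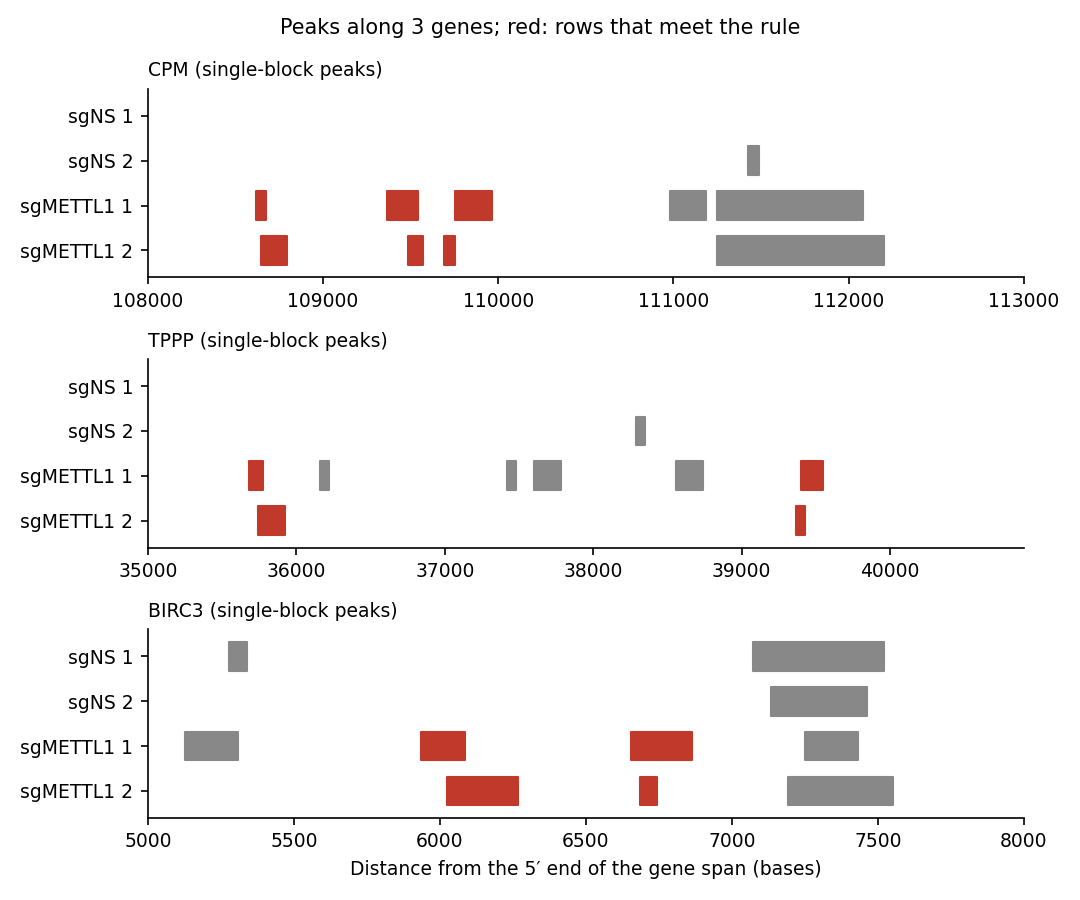
Single-block peaks of CPM, TPPP and BIRC3 in each list (rows) by distance from the 5′ end of the gene span (horizontal axis, bases), each panel showing the stretch that holds the sites. Red blocks are rows that meet the rule and grey blocks other peaks; CPM has 3 red sites, and TPPP and BIRC3 2 each.

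COL27A1 also held 3 sites, with small folds of 1.97 and 1.66, 1.95 and 1.88, and 1.62 and 1.88. They flanked a peak of 56 and 55 blocks that ran along most of the gene with sgMETTL1, of folds 7.25 and 14.8, whereas the sgNS lists split the same gene into peaks of 3 to 19 blocks with folds of 1.35 to 4.22 and, in the second list, a single block of 91 bases and fold 1.44 near its 3′ end. Both COL27A1 folds of 1.88 were those of 1 second-list peak, of 4 blocks and 1078 bases. In CCNL2, a cyclin tied to splicing, the sites had folds of 1.88 and 1.61, and 2.88 and 3.43, both downstream of a peak of 5 or 6 blocks that all 4 lists had. CEP85L, a centrosomal protein, had folds of 9.14 and 6.66, and 5.49 and 19.4. ARFRP1, a small GTPase of the Golgi, had 6.10 and 33.3, and 7.62 and 11.1. The 33.3 belonged to a second-list peak of 300 bases that reached over an sgNS peak and did not meet the rule. DHX57, a putative RNA helicase, had 2 sites that overlapped a single first-list peak of 451 bases and fold 2.95.

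The 48 sites in genes with no sgNS peak were in 48 genes, and all of those genes were in both sgMETTL1 lists. In 27 of the 48 genes, the rows of the site were the only peaks of the gene. In all, 99 gene names were in both sgMETTL1 lists and in neither sgNS list, and 49 of them named a site. The name beyond the 48 is PHOSPHO2, whose rows also carry the readthrough name PHOSPHO2-KLHL23, and that name had a peak in the sgNS lists. Folds in these genes had medians of 3.42 and 3.35, compared with 3.92 and 3.70 at sites in genes with an sgNS peak.

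Among those genes, the highest folds were at SIRPA, BICD1, PTHLH, ACRC (now GCNA), DAO, TMEM107, STAM2, CLIP4, RHOD and PCDHB14. BICD1, a dynein adaptor, had folds of 24.4 and 33.3, the second that of a 2-block peak of 121 bases. TMEM107, a protein of the ciliary transition zone, had 21.3 and 19.4, and its row was 208 bases in the first list and 60 in the second. SIRPA, the receptor for CD47, had 8.38 and 27.8 over the same 150 bases in both lists (chr20:1915196-1915345, plus strand). PTHLH, the parathyroid hormone-like hormone, had 6.10 and 8.33. DAO, D-amino acid oxidase, had 12.2 and 6.94 at 98.6% of the span, and PCDHB14, a clustered protocadherin, had 12.2 and 16.7. STAM2, an endosomal sorting adaptor, had 5.66 and 16.7, while CLIP4 had 6.60 and 6.11 and RHOD, a small GTPase, 6.86 and 6.11. In each of these genes the sgNS lists named no peak anywhere.

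The other hosts without an sgNS peak mostly had smaller folds, and the grouping by known function that follows was made by hand after the values were seen. Proteins of transcription and RNA processing among them included NKTR, a nuclear protein with a cyclophilin domain, with folds of 1.81 and 2.24, and CTR9, a subunit of the PAF1 complex, with 3.05 and 2.66. ZC3H18, which links the nuclear cap-binding complex to RNA decay, had 1.44 and 1.64, and C1D, a cofactor of the nuclear exosome, 3.63 and 2.90. CDK11A, a kinase tied to transcription and splicing, had 3.18 and 2.27. Centrosome and microtubule proteins were PCNT (2.17 and 2.03), CEP250 (1.70 and 1.68) and DYNLT1, a dynein light chain (2.13 and 1.41). Periplakin, PPL, which like desmoplakin belongs to the plakin family, had 2.59 and 2.58 at 95.1% of the gene. The mitochondrial enzymes OGDH, of the citric acid cycle, and TK2, a thymidine kinase, had 1.93 and 3.22, and 4.57 and 3.70. NPEPL1, an aminopeptidase-like protein, had 3.75 and 14.8, the folds furthest apart among these genes. The 14.8 was that of a 2-block peak of 211 bases.

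Of the gene lists used here, zinc finger genes held the most sites. Of 214 ZNF, ZFP, ZSCAN, ZKSCAN and ZBTB genes with a narrow sgMETTL1 peak, 15 held a site (7.01%), where 180 of all 5232 such genes did (3.44%). In this and the following lists, the genes counted are those of the list with a narrow sgMETTL1 peak. Most of them are DNA-binding transcription factors. Their folds ran from 1.88 and 1.73 at ZNF768 to 24.4 and 19.4 at ZNF610, with 33.5 and 5.55 at ZNF81, and 24.4 and 6.48 at ZFP14. ZNF318, with 8.38 and 2.51, and ZNF768 had no sgNS peak. ZNF432 had 18.3 and 9.72, ZBTB7A 7.62 and 9.25, ZNF708 6.97 and 5.30, ZNF605 3.86 and 3.70, ZNF512B 2.85 and 2.15, ZNF292 2.62 and 1.92, and ZBTB20 2.46 and 3.83. The family thus spanned nearly the whole range of folds of the sites. By the reverse rule, 47 of the 267 genes of this family with any peak hosted an sgNS-only site, where 1133 of all 6520 genes with a peak did. ZNF772 had 4.35 and 5.95 at its site, 149 bases from an sgNS peak. At ZBTB5, a row of 61 bases and fold 2.95 overlapped a first-list peak of 691 bases and fold 12.3 that touched an sgNS peak.

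Chromatin regulators held 4 sites among 51 genes (7.84%). They were also frequent hosts of sgNS-only sites, with 20 of 55 genes with any peak, beside 1133 of 6520 over all genes. KMT2B and KMT2D, methyltransferases of histone H3 lysine, had folds of 1.73 and 2.15, and of 1.57 and 1.40. KDM6B, a histone demethylase, had 2.51 and 2.78 at 29 bases from an sgNS peak, and CHD9, a chromatin remodeller, 2.70 and 3.86. KMT2B was the one of the 4 with no sgNS peak. KMT2B, KMT2D and KDM6B had folds under the medians of the rows that met the rule, 3.66 and 3.33, in both lists. CHD9 did in the first list only.

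The integrated stress response, in which phosphorylated eIF2 slows most translation while ATF4 is made, was represented by 2 of the 17 genes of its list that had a narrow sgMETTL1 peak (11.8%). The share over all genes was 3.44%. Hosts of sgNS-only sites were 7 of its 21 genes with any peak, beside 1133 of 6520 over all genes. ATF4, the transcription factor of that response, had folds of 3.05 and 2.52 at chr22:39520917-39521006 on the plus strand, 18.9% along the gene. PPP1R15A, the phosphatase subunit that reverses eIF2 phosphorylation, had 3.41 and 2.41 at chr19:48875854-48876032 on the plus strand, 96.8% along the gene. Neither gene had an sgNS peak. The ATF4 row of the second list ranked at percentile 99.2 by p in its list, among its weakest peaks.

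Among translation and RNA regulators, EIF3A, the largest subunit of the initiation factor eIF3, had folds of 1.22 and 1.26, and TNRC6A, a scaffold of microRNA silencing, 1.71 and 2.07. These were 1 of 22 translation factors (4.55%) and 1 of 44 stress granule and RNA-binding proteins (2.27%), beside 3.44% over all genes. Of genes listed as QKI targets, 1 of 11 (9.09%) held a site: ARHGAP5, a GTPase-activating protein, with folds of 1.30 and 1.22. BRAF, the kinase upstream of MEK, had 7.62 and 4.36 with no sgNS peak in the gene, as 1 of 35 MAPK and PI3K genes.

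Membrane and transport genes varied. The share over all genes, to set beside these counts, was 3.44%. TMEM genes held sites in 6 of 72 (8.33%), with folds at TMEM68 of 6.60 and 7.63, at TMEM192 of 5.16 and 6.48, and at TMEM87B of 2.91 and 2.34. Of 93 solute carriers, 1 did: SLC12A2, the sodium-potassium-chloride cotransporter, with 2.46 and 2.68. Of 74 genes with numbered RAB, ARF, ARL, RAP or TBC1D symbols 1 did, TBC1D9 with 3.81 and 3.28; ARFRP1, described above, is outside that list. Of 26 genes with KIF or MYO symbols, 2 held one: KIF5C, a neuronal kinesin heavy chain, with 30.5 and 13.9 at 29 bases from an sgNS peak, and KIF16B with 3.59 and 4.32. That list takes in no MYH genes, of which MYH9 held a site with folds of 1.32 and 1.31 and MYH14 one with 7.50 and 2.31. The 7.50 was that of a 5-block peak of 868 bases. USP49, a deubiquitinase, had 4.74 and 3.47 with no sgNS peak, and PPP1R18 had 2.60 and 2.20. By the reverse rule, hosts of sgNS-only sites were 13 of 83 TMEM genes and 27 of 116 solute carriers with any peak. They were also 16 of 89 genes of the RAB to TBC1D list and 6 of 36 KIF or MYO genes. Over all genes with any peak they were 1133 of 6520.

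Other lists had no host. Wnt, Hippo and TGF-beta signalling had 0 of 37 genes with a narrow sgMETTL1 peak, BTB-Kelch and F-box receptors 0 of 45, mitosis and cell cycle 0 of 23, the interferon response 0 of 16, cholesterol and lipid synthesis 0 of 15 and hepatocyte proteins 0 of 10. The share over all genes was 3.44%. No list was tested, and the counts stand beside the share over all genes as a description.

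Peaks that all 4 lists had in the host genes gave a comparison whose values did not enter the rule. The host genes themselves were chosen by peaks called with sgMETTL1 only, and some shared peaks lay next to a site. Counts for the host genes are therefore not independent of that choice. Overlapping peaks formed 5895 sites present in all 4 lists. At each, the strongest fold was turned into its rank within the list and then a normal score, and the 2 sgMETTL1 lists were compared with the 2 sgNS lists by limma across all 5895 sites. At a Benjamini-Hochberg FDR of 5%, 0 sites were called (0%), and the smallest adjusted p was 0.32 by limma; at an unadjusted p under 0.05, 319 were higher with sgMETTL1 (5.41%) and 290 lower (4.92%). On log2 folds limma also called 0, with 146 higher and 617 lower at that unadjusted level. In 82 of the 180 host genes, 142 sites of all 4 lists held no row of an sgMETTL1-only site. Of these, 80 had a higher mean score with sgMETTL1 and 62 a lower one, and 13 and 2 passed the unadjusted level.

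The shift of the host genes as a group was small beside the spread of their single sites, whose differences had quartiles of -0.185 and 0.391. The median difference in score, sgMETTL1 minus sgNS, was 0.0501 over the 142 sites and -0.0157 over all 5895. Against the mean of the sgNS lists, the first sgMETTL1 list gave a host median of 0.0102 and the second 0.0967 (SD 0.0612, n = 2). On the log2 scale of the deposited folds the host median was -0.143 and that of all sites -0.224, so the sign of the host median turned with the scale. Read relative to all sites, the hosts were higher on both scales.

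Differences of single host genes ran both ways at these shared peaks, none past the adjusted threshold. MYH9, non-muscle myosin heavy chain, had the highest difference among them, with folds of 1.24 and 1.26 with sgNS and of 1.66 and 1.60 with sgMETTL1; the groups did not overlap (difference 1.49 in score, SE 0.21, adjusted p = 0.32 by limma). ZNF772 had folds of 14.5 and 12.1 with sgNS and of 30.5 and 38.9 with sgMETTL1, and POTEF 2.08 and 2.34 against 4.23 and 3.23. CCNL2 had 2.15 and 2.43 against 3.56 and 3.24. VPS13C had 2.93 and 4.88 against 30.5 and 3.33, where the groups overlapped. At the other end, EPPK1 had 23.1 and 25.4 with sgNS and 4.06 and 10.2 with sgMETTL1 (difference -1.01, SE 0.36, adjusted p = 0.45 by limma). DSP, CHD9, ABL2 and UPF3A followed it, with CHD9 at 19.2 and 66.0 against 11.7 and 13.1, ABL2 at 12.1 and 57.0 against 7.31 and 13.0, and UPF3A, a factor of nonsense-mediated decay, at 5.79 and 5.63 against 1.87 and 5.55. EPPK1 had 7 such sites, of which 5 had a positive difference and 2 a negative one.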

How the data were processed

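The samples were 8 HepG2 libraries, input and Flag IP of QKI7 with sgNS or sgMETTL1, grouped by their titles. Per the submitters' processing notes, STAR and the build GRCh38 were used; no source used states a version, a peak caller or its scaling. Per the labels, each IP and input pair has its own peak list, and replicates were not pooled. The p-value of each peak, its logarithm with that of the FDR (handled as a score), and the fold enrichment (a ratio of IP over input) are as the authors deposited them; no unused columns of per-sample values were left out. Coordinates are 1-based. Depth is unknown, since no read counts were used.

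The members and all gene lists were chosen with earlier results of these data known. Peaks overlapped when their blocks shared at least 1 base on 1 strand (checked by brute force and on simulated lists). Ranks at sites of all 4 lists were compared with limma 3.58.1 in R 4.3.3 (two-sided, Benjamini-Hochberg FDR of 5%), also tested on simulated data. Shares have exact Clopper-Pearson 95% intervals (scipy 1.17.1, pandas 2.3.3, numpy 2.4.6, Python 3.11.15; figures with matplotlib 3.10.9). Named genes were the hosts of the 12 best sites by p and by fold, the 10 best by fold without an sgNS peak, genes with at least 3 sites, up to 4 hosts per gene list, METTL1, WDR4, QKI, and the 5 highest and 5 lowest shared sites; genes with 2 sites, the hosts in the first 10% of a gene, further zinc finger genes, the MYH genes and further hosts without an sgNS peak were named after their values were seen. Alternatives changed the overlap, distance, FDR, fold, width, strand, number of peaks, scale and lists used.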

Additional observations from a re-analysis of the deposited data

How the results depend on the processing

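The number of sgMETTL1-only sites, 190, became 77 with 50% reciprocal overlap, where sgNS-only sites went from 1305 to 760; with equal numbers of top-ranked peaks the sgNS-only sites were 810. Leaving out 1 list gave 367 to 1039 sgMETTL1-only and 1967 to 2727 sgNS-only sites, since one list fewer had to hold a peak or to lack one. The share of sites in genes with no sgNS peak, 25.3%, was 37.8% with no sgNS peak within 200 bases and 32.2% at a listed FDR of at most 1% in all lists, and 26.4 to 33.6% with 1 list left out. The share in the last 10% of the gene, 63.0%, was 55.6% with no sgNS peak within 200 bases and 62.9 to 71.0% with 1 list left out. The host genes' median score difference, 0.0501, was -0.143 on log2 folds and 0.0102 to 0.0967 with 1 list left out. Sites called between guides stayed at 0 in all 8 alternatives, with limma.

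In the sample titles, same-numbered replicates shared only a number, and whether they were prepared together is not known. The correlation of their deviations across sites was 0.0105. With the replicate block limma called 0 sites, the smallest adjusted p was 0.467 and the host median 0.0501. sgNS-only sites outnumbered sgMETTL1-only sites in every alternative run, by 1.89 to 9.87 times. With 2 lists a guide, no read counts and a p that places most sites among the weaker peaks of their list, a missing sgNS peak is not a measured absence of binding.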
